A study of Rattus norvegicus with 18 samples.

Results

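Transcripts of 6 genes that are typical of neutrophils, the granulocytes that reach injured tissue first, were followed in the proximal stump of the rat sciatic nerve over the first 9 h after transection. S100a8, S100a9, Lcn2, Csf3r, Cxcr2 and Mmp8 were taken as a set because an earlier look at the same arrays had shown them, so their values are a description and no P-value is given for them. They were found by gene name, or by the accession of the probe, among 35278 gene names on the array, and 8 of 41012 probes carry their names. A gene was tested if, at 1 time-point or more, none of the 3 arrays there had its probe near background. All 6 passed, as did 27197 gene names in all.

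Adult male Sprague-Dawley rats had a segment of the left sciatic nerve removed, and RNA of the proximal segment was hybridized to Agilent arrays of 1 colour. Labels place 3 arrays at 0 h, the reference, and 3 at each of 5 times after injury, the first at 0.5 h and 1 h, then 3 h and 6 h, and the last 9 h, which makes 18 arrays. All groups share strain, sex and surgery site, and nothing states whether an array holds 1 rat or a pool, so the spread between arrays may be partly technical. The tissue is whole nerve stump, in which more cells of a type and more RNA per cell cannot be told apart. All 9 Schwann cell genes looked for were well above background on all 18 arrays. The share of spots well above background ran from 65.9% to 93.5% per array, was lowest at 0.5 h (65.9% to 73.1%), and no spot was saturated. The scanner headers put the arrays of 0 h and 0.5 h on 1 day, the later ones on another, and 9 h replicate 3 on a day of its own, so beyond 0.5 h a difference from 0 h cannot be told apart from the scan day.

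Neutrophils are formed in bone marrow under G-CSF (product of Csf3), which acts through the receptor encoded by Csf3r. They leave the blood toward CXC chemokines, which bind the receptor encoded by Cxcr2. S100a8 and S100a9 encode both chains of calprotectin, which is abundant in the neutrophil cytosol and acts as a danger signal, while Mmp8 (neutrophil collagenase) and Lcn2 (which binds the siderophores of bacteria) encode proteins of the specific granules. S100a8 and S100a9 are also made by monocytes, and Lcn2 by epithelium, endothelium and glia under inflammation.

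The probes of the 6 genes are printed because each value below is the signal of 1 such sequence of 60 bases. They lie, on the rn4 build of the file, at chr2:182962328-182962387 (S100a8, + strand), chr2:182987647-182987706 (S100a9, - strand), chr8:4410891-4410950 (Mmp8, +), chr3:11511592-11511651 (Lcn2, -), chr5:145392260-145392319 (Csf3r, +) and chr9:73476657-73476716 (Cxcr2, +, which the files name Il8rb). Exons were not looked up, since no annotation of that build was used here. No letters are in capitals, as no part of a probe is singled out.

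S100a8: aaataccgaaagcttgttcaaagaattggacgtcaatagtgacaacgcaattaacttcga

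S100a9: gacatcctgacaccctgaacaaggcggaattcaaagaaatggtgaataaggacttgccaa

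Mmp8: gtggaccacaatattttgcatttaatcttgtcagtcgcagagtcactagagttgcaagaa

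Lcn2, first 30 bases: caatgcattgacaactgaacagacggtgag

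Csf3r: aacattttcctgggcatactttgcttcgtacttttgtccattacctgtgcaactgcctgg

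Cxcr2: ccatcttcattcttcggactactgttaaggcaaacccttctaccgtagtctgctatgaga

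S100a8 and S100a9 are neighbours on chromosome 2, yet their probes, like those of the other members, are unlike each other. Laid side by side without gaps, the 15 pairs matched at 17 to 22 of 60 bases. Levels are given as the log2 normalized signal, which is the log2 of the array's processed signal relative to the 75th percentile of that array, and differences are log2 differences of such values from the 0 h mean with their SE in limma (n = 3 arrays a time-point). Levels of different genes are not compared, because probes differ in brightness.

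The onset of a gene was set at the earliest time-point from which all 3 arrays stood above all 3 arrays of 0 h and were well above background, there and at each later time-point. By this rule S100a8 and S100a9 had an onset at 0.5 h, Csf3r at 1 h, and Lcn2, Cxcr2 and Mmp8 at 3 h. At a single time-point the rule was met by 2 of 6 members at 0.5 h, by 3 at 1 h and by all 6 from 3 h on. Among all gene names tested 14.8% met it at 0.5 h and again 14.8% at 1 h, followed by 17.9%, 22.4% and 28.5% at the 3 later time-points, and 4.24% had an onset at 0.5 h that was kept later. The members were chosen on these arrays, so nothing is read from the difference to those shares.

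**Figure D1:**
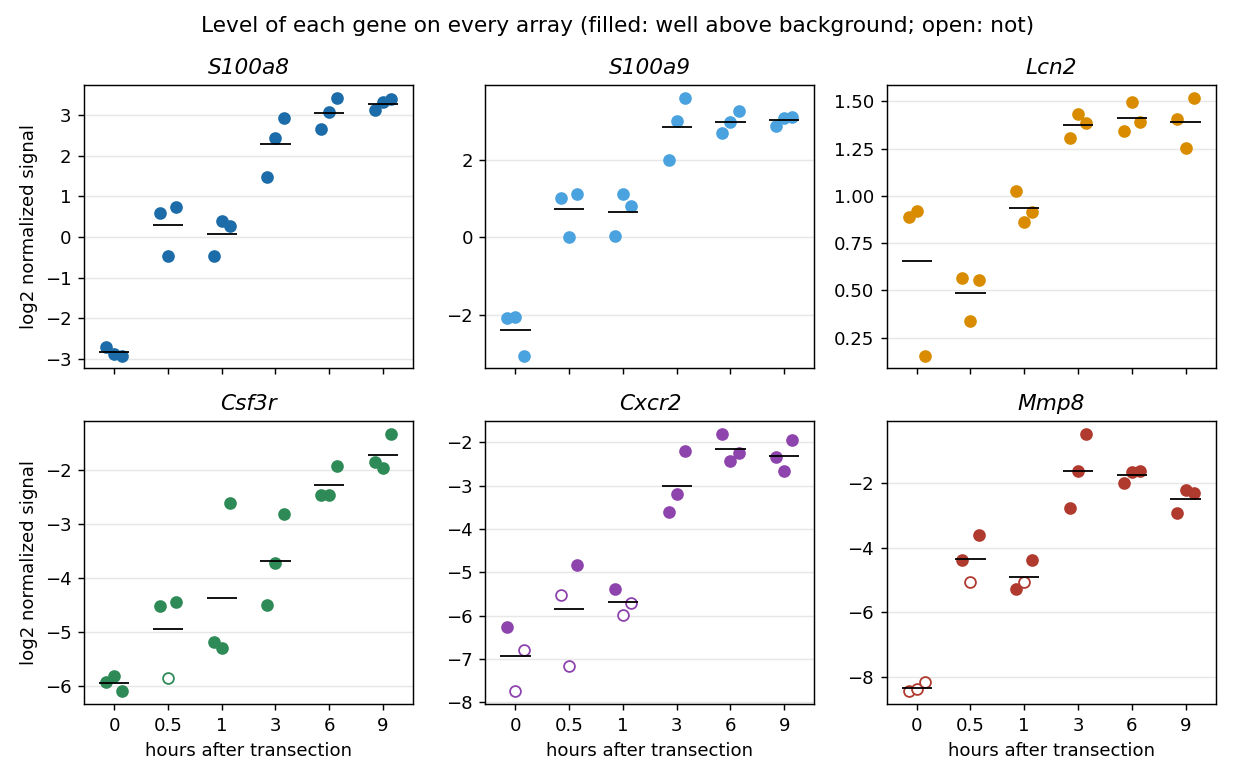
Log2 normalized signal (y axis, own range in each panel) of the 6 genes on each of the 18 arrays by hours after transection (x axis, evenly spaced categories). A point is an array, filled where the probe was well above background and open where not, and a line is the mean of 3 arrays; S100a8, S100a9 and Lcn2 are filled throughout, Mmp8 is open on all 0 h arrays and Cxcr2 is filled on all arrays only from 3 h.

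S100a8 and S100a9, the calprotectin chains, had the earliest onset of the set. S100a8 was at -2.70, -2.87 and -2.92 at 0 h and at 0.60, -0.47 and 0.75 at 0.5 h. All 3 arrays of 0.5 h stood apart from all 3 of 0 h, and the mean was 3.12 ± 0.37 higher, or 8.72 times the level of 0 h. At 1 h the values of -0.46, 0.40 and 0.28 overlapped with those of 0.5 h. They reached 1.48, 2.43 and 2.94 at 3 h, then 2.67, 3.08 and 3.43 at 6 h and 3.14, 3.32 and 3.41 at 9 h. The 3 latest time-points overlapped in part, and at 9 h the mean was 69.5 times that of 0 h.

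S100a9 took nearly the same course. It was at -2.10, -2.07 and -3.06 at 0 h, with replicate 3 lowest, and at 1.02, 0.01 and 1.13 at 0.5 h. No array of 0.5 h fell into the range of 0 h, and the mean was 3.13 ± 0.42 higher. The arrays of 1 h were at 0.04, 1.13 and 0.82, and those of 3 h at 1.99, 3.00 and 3.61. From 3 h on the level was nearly flat, with 2.69, 2.98 and 3.27 at 6 h and 2.87, 3.09 and 3.11 at 9 h. The difference from 0 h was 5.28 at 3 h, 5.39 at 6 h and 5.44 at 9 h (SE 0.42 each). Both genes were well above background on all 18 arrays, those of 0 h included. Both had steps of 3.12 and 3.13 in the first 0.5 h and of 2.21 in each gene between 1 h and 3 h, with -0.22 and -0.06 between 0.5 h and 1 h, whereas between 3 h and 6 h S100a8 had a further step of 0.77 and S100a9 one of 0.11.

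The files give S100a8 a further pair of probes, from an expressed sequence tag. They lie just before the transcript probe on the chromosome, at chr2:182962043-182962102 and chr2:182961489-182962022 (the latter spanning 534 bases, so broken by a gap in the genome), but on the opposite strand. They are printed because they carry the name of the gene on the strand that the other probe does not.

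S100a8, opposite strand, nearer the transcript probe: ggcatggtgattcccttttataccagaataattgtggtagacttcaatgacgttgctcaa

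S100a8, opposite strand, farther from it: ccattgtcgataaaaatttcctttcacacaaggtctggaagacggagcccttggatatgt

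The nearer one was not well above background at 0 h and was at least 16.2-fold higher at 6 h, and the farther, measured on 1 of 3 arrays at 0 h, was at least 42.5-fold higher at 6 h. The farther was well above background on 16 arrays and had its onset at 0.5 h. The nearer was well above background on 14 arrays, met the rule at 0.5 h, missed it at 1 h, where replicate 1 was not well above background, and had its onset at 3 h. Which transcript they bind was not tested.

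Mmp8, the collagenase of the granules, was not measurable at 0 h. At 0 h it was at -8.46, -8.39 and -8.18, not well above background on any array. At 0.5 h it was well above background on 2 of 3 arrays, at -4.39 and -3.61, with replicate 2 not, at -5.05. At 1 h it was at -5.28, -5.05 and -4.36, again with replicate 2 not well above background. All 6 of these arrays lay above all of 0 h, although 2 of the 6 are not measured values. The 3 h levels were -2.76, -1.62 and -0.45, followed by -1.99, -1.63 and -1.60 at 6 h, and those of 9 h were -2.93, -2.20 and -2.28. Against the lowest signal that counted as well above background on the 0 h arrays, Mmp8 was at least 29.8-fold higher at 3 h, at least 27.2-fold at 6 h and at least 16.4-fold at 9 h. In the fitted values its step from 6 h to 9 h was -0.73, the lowest last step among the 6 genes.

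Lcn2, the siderophore binder, had the smallest difference at 9 h among the 6 genes and was well above background on all 18 arrays. The 0 h arrays had 0.89, 0.92 and 0.16, those of 0.5 h had 0.56, 0.34 and 0.56, and those of 1 h had 1.02, 0.86 and 0.91. Both early time-points overlapped with 0 h. The levels were 1.30, 1.43 and 1.39 at 3 h, then 1.34, 1.50 and 1.39 (6 h) and 1.41, 1.25 and 1.52 (9 h). These 9 arrays lay above all earlier ones, at differences of 0.72, 0.76 and 0.74 from 0 h (SE 0.16 each), or 1.65 to 1.69 times its level. Replicate 3 of 0 h lay below the other two, and without it the differences were 0.47, 0.51 and 0.49. The same array had the lowest S100a9 and the lowest summed level of erythroid genes, 2.44 below the mean of the other 0 h arrays on the log2 scale.

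Csf3r, the G-CSF receptor, reached its highest level at 9 h. It was at -5.93, -5.82 and -6.09 at 0 h and at -4.51, -5.85 and -4.44 at 0.5 h. Replicate 2 of 0.5 h was within the range of 0 h and was the only array of 18 on which Csf3r was not well above background. At 1 h, 2 arrays were at -5.17 and -5.29 and replicate 3 at -2.61, so the difference of 1.59 ± 0.61 from 0 h was 0.71 without that array. The values of 3 h were -4.51, -3.71 and -2.82, those of 6 h -2.46, -2.46 and -1.93, and those of 9 h -1.86, -1.97 and -1.33. No array of 3 h lay above all of 1 h, whereas all of 6 h and 9 h did. The difference from 0 h was 3.66 at 6 h and 4.22 at 9 h, where its level was 18.7 times that of 0 h, and its step from 3 h to 6 h, of 1.39, was the largest of its 5 steps. Without 0.5 h replicate 2 its onset would be 0.5 h.

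Cxcr2, the chemokine receptor, was well above background on all arrays only from 3 h on. At 0 h it was at -6.25, -7.75 and -6.80, well above background on replicate 1 only. At 0.5 h it was at -5.52, -7.17 and -4.84, measured on replicate 3 only, and at 1 h at -5.37, -5.99 and -5.71, measured on replicate 1 only. The arrays of 0.5 h overlapped with those of 0 h, and the fitted 0.5 h difference of 1.09 ± 0.53, between groups measured on 1 array each, ran from 0.59 without 0.5 h replicate 3 (0.68 without 0 h replicate 2) to 1.75 without 0.5 h replicate 2. Csf3, measured on no array of either time-point, had a fitted difference of 1.30 there, so nothing is read from that of Cxcr2. At 3 h Cxcr2 was at -3.62, -3.19 and -2.19, followed by -1.80, -2.43 and -2.24 (6 h) and -2.33, -2.66 and -1.95 (9 h). It was well above background on all 9 of these arrays, which lay above all 9 earlier ones, and was at least 5.27-fold higher at 3 h than at 1 h. The fitted differences from 0 h were 3.93, 4.78 and 4.62 (SE 0.53 each), in which 2 of the 3 arrays of 0 h are not measured values. With those arrays raised to the lowest signal that counted as well above background, Cxcr2 was at least 10.1-fold higher at 3 h, at least 18.1-fold at 6 h and at least 16.3-fold at 9 h. The dim genes depended on the background correction. With normexp, which raises the lowest signals, the 9 h difference was 2.03 for Cxcr2, 2.44 for Csf3r and 1.91 for Mmp8. Their onsets stayed the same, but the rule kept the same background flags, so none of these could have come earlier.

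In limma's fit over all probes, with an unadjusted P-value limit of 0.01 and a Benjamini-Hochberg limit of 0.05, all 6 members were called over the time-points, as were 34.6% of all gene names. S100a8 and S100a9 were called higher at all 5 time-points and Lcn2 and Csf3r at the 3 later ones. Mmp8 was called at all 5 and Cxcr2 at the 3 later ones too, but both passed the filter only through the later time-points, and their 0 h values are largely not measured. As all members were chosen on these arrays, nothing is read from any of these calls. Of all gene names 4.28% were called higher at 0.5 h and 3.59% at 1 h, and at the later time-points 7.16%, 12.0% and 15.8%, while 15.4% were called lower at 9 h. Against 1 h, within which scan day is shared but for 1 array of 9 h, S100a8 and S100a9 were called higher at 3 h, and these with Csf3r at 6 h and 9 h, as were Cxcr2 and Mmp8 at all 3, with 1 and 2 of 3 arrays measured at 1 h, beside 5.59%, 11.4% and 11.7% of all gene names. Lcn2 was not called against 1 h. On the second scan day alone, with 11 arrays, the difference of 6 h from 1 h was 2.99 for S100a8, 2.32 for S100a9, 0.48 ± 0.09 for Lcn2 and 2.08 for Csf3r. Cxcr2 was at least 9.45-fold higher at 6 h than at 1 h and Mmp8 at least 8.94-fold. All 3 arrays of 6 h were above all of 1 h in each gene.

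At 0.5 h and 3 h, though not at every time-point, the members were high or low on the same arrays. After the mean of its time-point was taken from each value, S100a8 and S100a9 correlated at r = 0.92 over the 18 arrays, and S100a8 and Mmp8 at 0.85. The 15 pairs ran from 0.06 to 0.92, and the lowest 4 all held Lcn2. Arrays share RNA, labelling and scaling in all genes, so these are descriptions of the libraries. Unmeasured values enter the correlations too, for Mmp8 and Cxcr2 at 0 h, 0.5 h and 1 h and for Csf3r at 0.5 h. At 0.5 h replicate 2 was lowest in all 6 genes, of which Csf3r, Cxcr2 and Mmp8 were not well above background there. At 3 h replicate 1 was lowest in all 6 and replicate 3 highest in all but Lcn2. At 1 h and 6 h replicate 1 was the lowest of the 3 in S100a8 and S100a9 and the highest in Cxcr2. Replicate 1 of 6 h stood apart from the other arrays. It had 93.5% of spots well above background, against 79.1% and 73.4% on the other arrays of 6 h. Without it the fitted 6 h difference from 0 h was 6.73 for Mmp8, beside 6.60 with it, and 3.75 for Csf3r, beside 3.66. All 6 members still met the onset rule at 6 h.

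**Figure D2:**
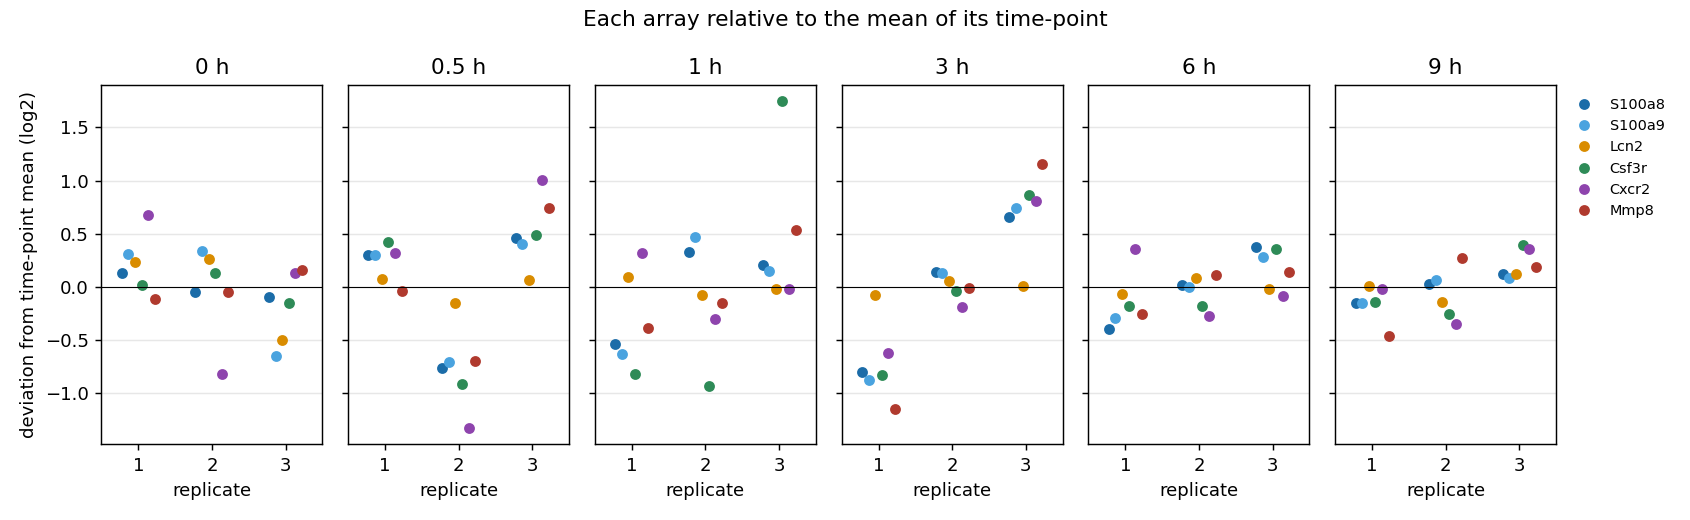
Deviation of each array from the mean of its time-point (y axis, log2) for the 6 genes, by replicate number (x axis) in a panel for each time-point; replicate numbers have no order. At 0.5 h all 6 genes are below 0 on replicate 2, where Csf3r, Cxcr2 and Mmp8 are not well above background. At 3 h 5 of them are high on replicate 3, and at 1 h Csf3r on replicate 3 stands apart at 1.75 above its mean.

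Blood left in the tissue was followed by genes of red cells and platelets. Of the erythroid list 5 of 8 genes were tested, among them Hbb (beta globin) and Alas2 (the first enzyme of heme synthesis in red cells), and all 5 were well above background on all arrays. None was called over the time-points in limma, nor at an unadjusted P-value limit of 0.05, although single time-points passed that limit, with 3 of the 5 higher at 0.5 h, 1 at 1 h and 4 at 3 h, when all 6 members were above 0 h. Hbb differed by 1.84 ± 0.67 at 0.5 h and 1.58 at 3 h, and Alas2, the brightest of the list, by 1.31 ± 0.66 and 1.58. These differences rest in large part on 0 h replicate 3. It was at -1.10 in Hbb, against 1.75 and 1.39 on the other 0 h arrays, and at 0.40 in Alas2, against 2.96 and 3.02. Their summed level on the log2 scale lay between 1.80 and 4.26 at 0 h, and at 0.5 h between 4.45 and 5.13. At 1 h the range was 4.28 to 5.08, followed by 4.17 to 6.00 (3 h), 3.50 to 5.38 (6 h) and 3.61 to 4.29 (9 h). The arrays of 9 h overlapped with those of 0 h in erythroid genes, and lay above those of 0 h in all 6 members. The 0.5 h arrays lay above all of 0 h in erythroid genes, as they did in S100a8, S100a9 and Mmp8 but not in Lcn2, Csf3r and Cxcr2. Replicate 2 of 0.5 h was the highest of the 3 in erythroid genes and the lowest in every member. Csf3r, Cxcr2 and Mmp8 were not well above background on it. The 4 platelet genes tested had a summed level of 2.62 to 3.38 (0 h), 3.61 to 3.79 (0.5 h), at most 3.53 (1 h), 3.25 to 4.22 (3 h), 2.95 to 5.20 (6 h) and 3.33 to 3.43 (9 h). None was called in the F-test (none at the unadjusted limit either), but at single time-points 2, 2, 2 and 3 of the 4 were higher at the unadjusted limit from 0.5 h to 6 h, and at 6 h Gp9 (1.22 ± 0.38) and Treml1 (1.97 ± 0.57) were called higher in limma. The 6 h values rest in part on replicate 2, at -0.58 in Gp9 against -1.69 and -2.60, and at 2.35 in Treml1 against 0.94 and -0.78. The brightest of the list, Pf4 (platelet factor 4), differed by 0.81 ± 0.42 at 0.5 h, and Treml1 by 1.46. Deviations within time-points correlated between the erythroid sum and S100a8 at 0.10, Mmp8 at 0.04, Csf3r at 0.10, Cxcr2 at -0.17, S100a9 at 0.37 and Lcn2 at 0.65 (0.22 and 0.40 for the last pair without 0 h replicate 3). These are descriptions, and the part of residual blood in the members' values was not tested.

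Of 10 monocyte and macrophage genes, 9 were tested and 6 called over the time-points, beside 34.6% of all genes. None was called higher at 0.5 h or 1 h, Aif1 was called lower at 1 h, and 1 gene was higher at 3 h and 2 at 6 h, where 1 was lower. Against 1 h, 2, 4 and 5 were higher at the later time-points, beside 5.59%, 11.4% and 11.7% of all genes. On the second scan day alone, without 9 h replicate 3, 4 were higher at 9 h. Of all genes 15.8% were called higher at 9 h, and of these 9 genes 3 were: Cd14 (the LPS co-receptor, 2.15 ± 0.24), Ccr2 (the receptor that draws monocytes, 2.02 ± 0.29) and Cd163 (a haptoglobin-hemoglobin scavenger receptor, 1.55 ± 0.36). Adgre1, a marker of tissue macrophages, fell by 0.91 at 9 h. Their summed level lay between 4.67 and 4.78 at 0 h, between 4.51 and 4.92 at 0.5 h and between 4.23 and 4.55 at 1 h. At the later time-points it was 4.66 to 5.25 (3 h), 4.81 to 5.27 (6 h) and 5.22 to 5.57 (9 h). Within time-points it correlated with Mmp8 at 0.83, S100a8 at 0.80, S100a9 at 0.68, Csf3r at 0.65, Cxcr2 at 0.51 and Lcn2 at -0.01, over 18 arrays that share their RNA. How far monocytes contribute to the members was not tested.

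**Figure D3:**
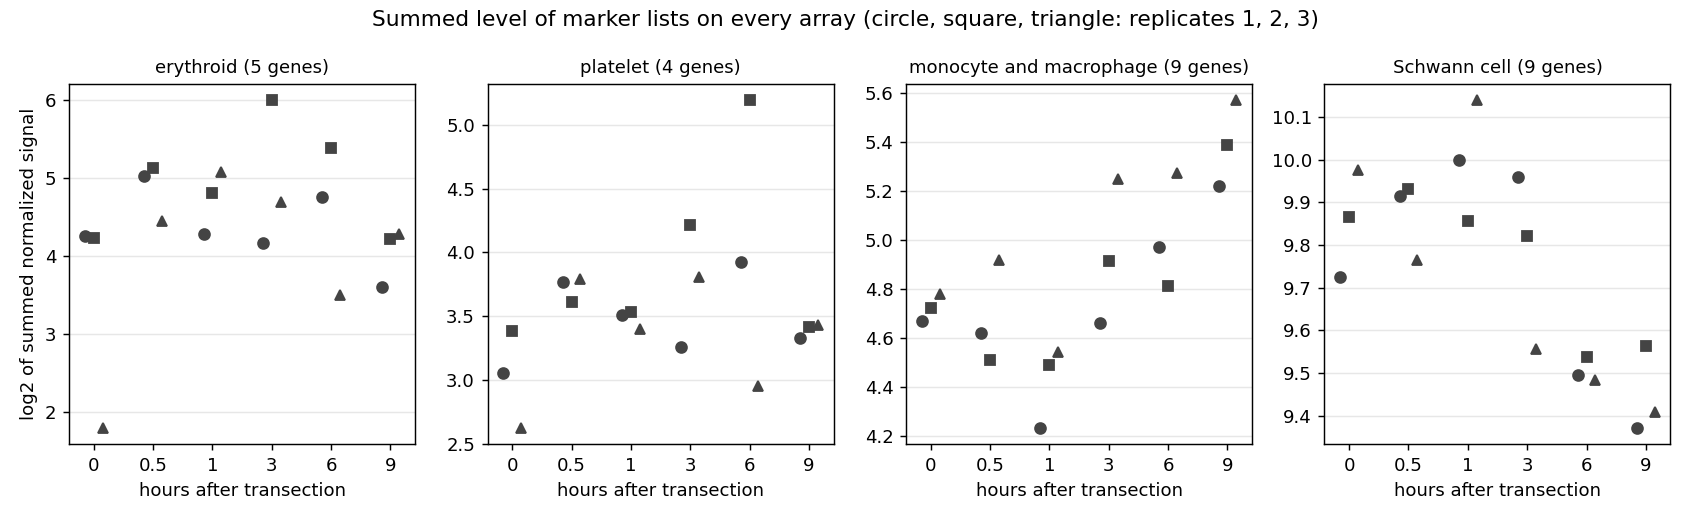
Log2 of the summed normalized signal (y axis) of the tested genes of 4 marker lists on each array, by hours after transection (x axis, evenly spaced categories), with a symbol for each replicate. Erythroid genes at 9 h (3.61 to 4.29) are within or next to the 0 h range, and 0 h replicate 3 is the lowest at 1.80, while the monocyte and macrophage genes are highest at 9 h.

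Other lists covered further cells that the segment could hold, and their counts stand beside 34.6% of all genes called over the time-points. Of 5 lymphocyte genes tested 2 were called over the time-points, Cd2 (at least 4.63-fold higher at 9 h, with 1 of 3 arrays measured at 0 h) and Cd3d (1.26 ± 0.27). None of 7 mast cell genes was, with 1 past an unadjusted P-value limit of 0.05, and the brightest, Cma1 (a chymase), differed by -0.38 ± 0.23 at 9 h, while Ms4a2 was called lower at 6 h (-0.90 ± 0.25). Of 3 keratinocyte genes Krt1 was called (0.75 ± 0.14 at 0.5 h), and Krt14, not called over the time-points, was higher at 1 h (1.40 ± 0.34), 3 h (1.11) and 9 h (1.31). Of 6 endothelial genes those called were Emcn and Kdr, at -0.63 and -0.58 from 0 h to 9 h. Of 9 Schwann cell genes 3 were called over the time-points, a share near that of all genes. At 9 h 4 of the 9 were called lower than at 0 h, beside 15.4% of all genes. Among the 3, the myelin gene Mag was -0.90 ± 0.18 at 9 h. All 6 fibroblast genes were called, and 5 were lower at 9 h, at differences from -0.63 to -0.45.

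Other granule genes were mostly called from 3 h on. Of 16 genes on the array 14 were tested and 9 called over the time-points, beside 34.6% of all genes. Called higher at the successive time-points were 1, 1, 8, 9 and 10 of them, beside 4.28%, 3.59%, 7.16%, 12.0% and 15.8% of all genes. The median difference at 9 h was 1.73 beside 0.01 for all genes. Only 8 of the 14 were well above background on all 18 arrays, so these values rest in part on unmeasured 0 h levels. Against 1 h, which shares the scan day with most later arrays, 4, 5 and 5 were called higher at the 3 later time-points. The shares of all genes there were 5.59%, 11.4% and 11.7%, and 2 granule genes were called lower at 6 h. On the second scan day alone, without 9 h replicate 3, 4 were higher and 2 lower at 9 h, beside 2201 and 2191 of 27197 genes. Slpi (an inhibitor of neutrophil elastase), measured on all arrays, was 4.49 ± 0.44 higher at 9 h than at 0 h. Mmp9 (gelatinase B of the tertiary granules) and Camp (cathelicidin) were well above background on 1 of 3 arrays at 0 h, and Mmp9 was at least 23.4-fold higher at 9 h, Camp at least 13.3-fold at 3 h and at least 9.64-fold at 9 h. Olfm4, of the specific granules, was not measured at 0 h and at least 2.79-fold higher at 6 h. It was at -5.65, -4.92 and -4.52 there and at -5.55, -5.59 and -6.85 at 9 h, where the bound is smaller. Mpo and Prtn3, whose products fill the primary granules of promyelocytes and which are named here after their values were seen, did not pass at any time-point. Mpo differed by 1.06 ± 0.49 at 0.5 h, 1.23 at 1 h and 0.19 at 9 h, and Prtn3 by 0.35 ± 0.23, 0.58 and 0.30. Elane, a primary granule gene too, was called at 9 h, but was not well above background on any array of 0 h and is at least 1.71-fold higher. That bound rests mostly on 9 h replicate 3, at -4.53 against -6.21 and -6.46, the array with a scan day of its own. The gene called at 0.5 h was Np4, an alpha-defensin, at 0.66 ± 0.13.

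Other surface genes were mostly called from 3 h or 6 h on. Of 18 chosen 14 were tested and 9 called, with 2, 2, 5, 9 and 8 called higher at the successive time-points and a median of 1.75 at 9 h. Of all genes 34.6% were called over the time-points, and 4.28%, 3.59%, 7.16%, 12.0% and 15.8% were called higher at them. Against 1 h, 6, 10 and 10 of the surface genes were called higher at the later ones, beside 5.59%, 11.4% and 11.7% of all genes. Of the 14 surface genes, 8 were well above background on all 18 arrays. Clec4e and Clec4d, C-type lectins that sense microbes and dead cells, were not well above background at 0 h and were at least 23.1-fold and at least 30.5-fold higher at 9 h. At 0.5 h Clec4d was well above background on 2 of 3 arrays and Clec4e on 1. Il1r2, a decoy receptor for IL-1, was measured on all arrays and was 4.07 ± 0.26 higher at 3 h (adjusted P = 6.51e-07) and 5.18 at 9 h. The NADPH oxidase makes superoxide in these cells. Of the 4 of its genes followed 3 were called, with none higher at 0.5 h, 1 h and 3 h (none in limma at an unadjusted P-value limit of 0.05 either), 1 at 6 h and 2 at 9 h. Ncf4 and Ncf1, of its cytosolic part, were 1.56 and 0.70 higher at 9 h, whereas Cybb (0.33 ± 0.20) and Cyba (0.15 ± 0.14), its membrane subunits, did not pass there. Against 1 h all 4 were called higher at 9 h, Cybb by 0.88 ± 0.20 and Cyba by 0.43 ± 0.14. On the second scan day alone, which leaves out 9 h replicate 3, 3 of the 4 were. Of the 14 surface genes 7 were, beside 2201 of 27197 genes in all.

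**Figure D4:**
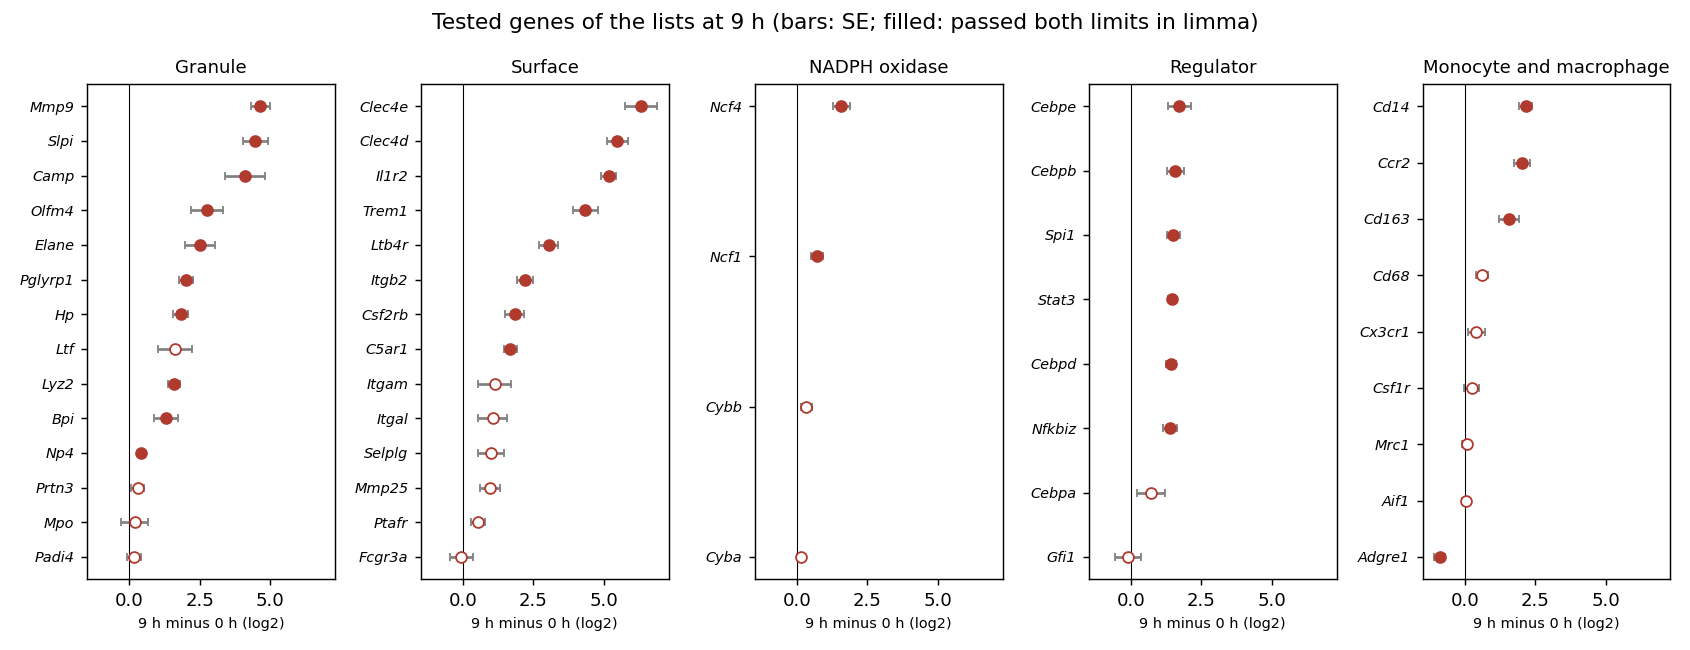
Difference of 9 h from 0 h (x axis, log2, bars SE, n = 3 arrays each) for each tested gene of 5 lists, filled where it passed both limits in limma. In the granule list Slpi lies above 4 and Mpo, Prtn3 and Padi4 near 0, and in the surface list Il1r2 lies above 5. Mmp9, Camp, Olfm4, Elane, Ltf, Bpi, Clec4e and Clec4d were not well above background on all 0 h arrays. Their points rest in part on unmeasured values, for which the text gives bounds except for Ltf and Bpi.

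Of the ligand genes, those of Cxcr2 were in part higher at 0.5 h. Cxcl1 and Cxcl2, which bind the product of Cxcr2, were measured on all arrays and were 5.57 ± 0.20 and 7.20 ± 0.25 higher at 0.5 h (adjusted P = 1.72e-09 for each), when Cxcr2 still overlapped with 0 h. Cxcl3, a further ligand, was 2.18 ± 0.32 at 0.5 h and 7.98 at 9 h. Csf3, the ligand gene of Csf3r, was not well above background before 3 h, was at least 11.3-fold higher than 0 h at 3 h, and then at least 5.45-fold at 6 h and at least 2.23-fold at 9 h, while Csf3r was highest at 9 h. Of the whole list of 13 ligands, receptors and inhibitors of the members, 11 were called, 5, 3, 8, 8 and 8 were called higher at the successive time-points (Csf3 among the first, although not well above background there), and 2 were lower at 9 h. The shares of all genes were 34.6% called, and 4.28%, 3.59%, 7.16%, 12.0% and 15.8% called higher. Of the 13, 9 were well above background on all 18 arrays, so the counts rest in part on unmeasured values. Among those that bind the products of the other members, Tlr4, a receptor for calprotectin, was lower at 1 h (-0.87 ± 0.15) and at 0.40 at 6 h and 0.37 at 9 h, which did not pass. Slc22a17, the receptor for the product of Lcn2, was lower at 9 h (-0.57 ± 0.14), and Timp1, an inhibitor of metalloproteinases, was higher (1.58 ± 0.14), whereas Timp2, of the same family, was lower (-0.51 ± 0.08). These other than Cxcl1, Cxcl2, Cxcl3 and Csf3 were named after their values were seen.

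**Figure D5:**
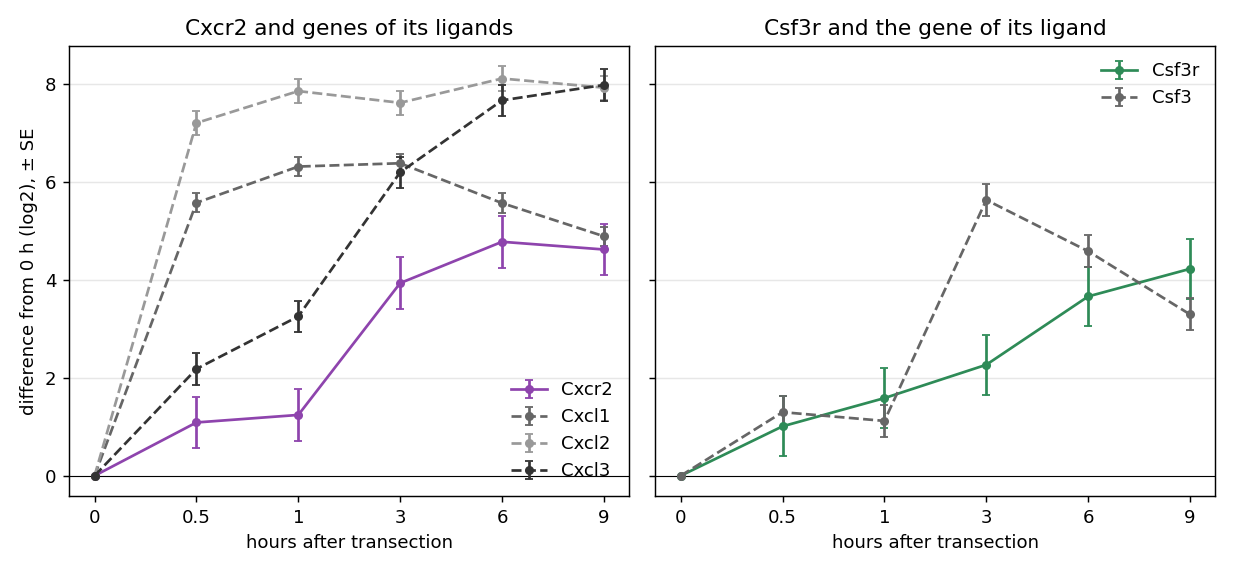
Difference from 0 h (y axis, log2, bars SE, n = 3 arrays) by hours after transection (x axis, evenly spaced categories) for Cxcr2 with 3 ligand genes and for Csf3r with its ligand gene. Cxcl1 and Cxcl2 are above 5 at 0.5 h, where Cxcr2 is at a fitted 1.09 that is mostly unmeasured, and Csf3 is highest at 3 h, where it is first measured, while Csf3r is highest at 9 h.

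Of 8 regulators of these genes 7 were called, beside 34.6% of all genes, and 3, 3, 4, 5 and 6 were called higher at the successive time-points, beside 4.28%, 3.59%, 7.16%, 12.0% and 15.8%. Nfkbiz, an atypical IkB protein needed for transcription of Lcn2, was 3.26 ± 0.25 higher at 0.5 h (adjusted P = 1.13e-05) and 1.39 at 9 h. Cebpd, a C/EBP factor of acute inflammation, was 1.06 ± 0.18 higher at 0.5 h and 1.67 at 3 h. Cebpe, the C/EBP factor that drives specific granule genes in bone marrow, was 1.71 ± 0.40 higher at 9 h, and had not passed earlier. Gfi1, a repressor in granulocyte precursors, was well above background on all 3 arrays at 0 h and on none at 1 h (called, and at least 1.68-fold higher at 0 h than at 1 h), and was not called at the other time-points.

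The 250 bases before the start of the gene were looked up in RefSeq (GRCr8) for the members, of which 5 had an entry, all but S100a8. They were searched on both strands for an NF-kB motif, GGGANNNNCC, and a C/EBP motif, TTGCNNAA, which 16.4% and 9.22% of all 33469 promoters hold, and 1.18% hold both. Lcn2 held both, and Mmp8 held 2 copies of the C/EBP motif, at 101 and 46 bases before the start, whereas S100a9, Csf3r and Cxcr2 held neither in this window. Those of Lcn2, at chr3:36081781-36082030 (- strand), and of Mmp8, at chr8:13008640-13008889 (+ strand), are printed in the direction of transcription with the motifs in capitals, since their genes are the granule genes of the set. In Lcn2 the NF-kB motif matched on both strands in overlapping runs (243 and 242 bases before the start), and the C/EBP motif at 191. A match in letters says nothing of a bound factor.

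Lcn2 promoter: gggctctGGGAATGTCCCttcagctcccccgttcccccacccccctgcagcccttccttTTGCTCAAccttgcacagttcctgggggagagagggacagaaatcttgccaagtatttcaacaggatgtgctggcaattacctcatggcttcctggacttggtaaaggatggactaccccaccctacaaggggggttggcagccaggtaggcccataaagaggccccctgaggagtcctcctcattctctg

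Mmp8 promoter: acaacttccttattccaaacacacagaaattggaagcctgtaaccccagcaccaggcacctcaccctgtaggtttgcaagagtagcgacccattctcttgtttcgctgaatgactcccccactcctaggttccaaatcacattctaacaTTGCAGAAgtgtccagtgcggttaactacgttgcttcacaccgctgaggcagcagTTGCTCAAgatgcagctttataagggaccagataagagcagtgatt

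The genes most alike to the set in course were found by the mean correlation of a gene's levels with those of the 6 members over the 18 arrays. They were Clec4e (mean r = 0.93), Clec4d (0.92), Mcemp1 (0.92, a membrane protein of mast cells and leukocytes), Cxcl3 (0.92) and Steap2 (0.92, a metalloreductase). The members correlated with each other at 0.71 to 0.99. Each had a nearest gene of its own, which was Clec4d for S100a8 (r = 0.98), Nlrp12 for S100a9 (0.98), Adora2a for Lcn2 (0.96), Nos2 for Csf3r (0.97), Clec4e for Cxcr2 (0.98) and Csta for Mmp8 (0.97). All these correlations share the arrays and the course over time. Unmeasured values enter them too, since Mmp8, Cxcr2, Clec4d and Clec4e each had arrays not well above background at 0 h, 0.5 h and 1 h.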

How the data were processed

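Scanner files of 18 Agilent arrays, 3 for each of 6 time-points named in the sample labels, were used. Per the file headers they came from Feature Extraction 10.5.1.1, whose deposited processed signal is a background-subtracted intensity on a linear scale, with probe positions on rn4. A table of log2 values, quantile normalized by the authors before it was deposited, served as an alternative.

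Outlier and control spots were left out, the processed signal was put on the log2 scale, each array's 75th percentile was subtracted, and spots of a probe were averaged. The number of arrays, 3 a time-point, limits the precision. A probe was tested if well above background on all 3 arrays of a time-point (32111 of 41012), and a gene was read from its tested probe of highest mean. limma 3.58.1 (R 4.3.3) was fitted with all time-points in 1 model (prior degrees of freedom 1.94), and adjusted P-values cover all tested probes. P-values measure only the spread between arrays. A fold was called at least so large where the dim group was not well above background on all arrays, against the lowest signal that was. The script was tested on simulated data.

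The 6 members and all lists (other granule, other surface, NADPH oxidase, partners, regulators, monocyte and macrophage, erythroid, platelet, lymphocyte, mast cell, keratinocyte, endothelium, Schwann cell, fibroblast) were chosen with earlier results of these data known, and some genes are not reported here. Of a list, up to 4 called genes with the largest absolute difference from 0 h were to be named, or, with none called, the brightest. Of likeness, the 5 most alike genes and the nearest of each member were named. Probe names came from the files and, for 16336 probes, from RefSeq by accession. Alternatives were normexp, quantile and median scaling, the deposited matrix, other filters on dim probes, replicate, slide and scan day as blocks, each array left out, another prior, adjusted P-values alone, and other probes.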

Additional observations from a re-analysis of the deposited data

How the results depend on the processing

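No member's difference from 0 h changed its sign under any of 23 alternatives, and at 9 h S100a8 stayed between 5.70 and 6.19 and S100a9 between 5.06 and 5.61. Among these, the replicate block and the loss of an array from a time-point outside the comparison could not change a difference. The dim members depended on the background correction: with normexp, in which low signals are compressed, the 9 h difference was 1.91 for Mmp8, 2.03 for Cxcr2 and 2.44 for Csf3r, and at 0.5 h it was 0.80 for Mmp8, 0.23 for Cxcr2 and 0.33 for Csf3r. With normexp 7 partner genes were called in the F-test, and over all genes 3635 against 9419. At the successive time-points normexp called 159, 224, 1558, 2048 and 2922 genes against 1631, 1532, 3805, 6804 and 8463. Restricting the fit to probes above background on each of the 18 arrays, which leaves fewer genes, gave 5 granule and 7 partner genes called. The onset of S100a8 was 3 h by the nearer opposite-strand probe. Scaling to the median put the median difference of all genes, which was 0.00 to 0.02, at -0.17, -0.14, -0.10, -0.13 and -0.16, and the share of calls that were higher from 71.3%, 63.8%, 51.1%, 48.1% and 50.7% to 33.4%, 35.5%, 40.7%, 32.1% and 34.6%; with quantile scaling it was 55.5% at 0.5 h and 50.4% at 1 h, with the deposited matrix 56.4% and 50.1%, and with normexp 93.1%, 79.5% and 64.1% from 0.5 h to 3 h.

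With each array left out in turn, the members that met the onset rule numbered 2 to 4 at 0.5 h, 3 to 4 at 1 h and 6 in each case later. Onsets stayed at 0.5 h for S100a8 and S100a9 and 3 h for Lcn2 and Cxcr2, and ran from 0.5 to 1 h for Csf3r (0.5 h and 4 members without 0.5 h replicate 2) and from 1 to 3 h for Mmp8 (1 h without 1 h replicate 2). The F-test called 8 to 10 granule, 8 to 10 surface, 2 to 3 NADPH oxidase, 10 to 11 partner and 6 to 7 regulator genes. Without 6 h replicate 3 it called 3 platelet genes. Over all genes it called 8166 to 9968, and the time-points 549 to 2231 (lowest without 0.5 h replicate 3), 723 to 2189 (lowest without 0 h replicate 2), 2001 to 4517 (lowest without 3 h replicate 2), 5252 to 7483 and 6586 to 9093.

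Replicate numbers are shared by the time-points, but nothing says that they pair arrays: deviations of same-numbered arrays correlated at -0.26 to 0.56 (median 0.07), and 11 of 18 arrays correlated best with their own number. The replicate block cannot change the members' differences of means, as each replicate number occurs once at each time-point. With it 9493 genes were called in the F-test and 1783, 1728, 4072, 6937 and 8814 at the time-points, and 1 erythroid gene was called. Arrays of a slide had a consensus correlation of -0.01. Scan day as a block takes up only 9 h replicate 3, since the first 2 days share no time-point, and with it 2207 genes and 3 members were called at 0.5 h. Before 3 h, signal near background limits what can be said of Mmp8 and Cxcr2.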
